A study of Homo sapiens with 6 samples.

Results

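The baseline transcriptome of HepG2 cells was described from the 3 control libraries among the 6 RNA-seq libraries of the study. Members were taken by their label, as the libraries from cells given a control hairpin plasmid. HepG2 is an epithelial line derived from a human liver tumour. The other 3 libraries came from HepG2 cells given a plasmid with a hairpin against TCTP, the protein encoded by TPT1, and no level or comparison below uses them. Whether the authors used them to choose the listed genes is not given. Per the labels, all cells were grown in DMEM with fetal bovine serum and transfected by a cationic lipid reagent, so transfection and plasmid are part of the state described. The libraries were strand-marked, made from poly(A) RNA and read from both ends. A single cell line without other liver cell types stands for the hepatocyte here, and the labels do not state whether the 3 libraries came from separate cultures, so their spread may be technical.

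Hepatocytes make most of the proteins of blood plasma, among them albumin, the apolipoproteins that coat lipoprotein particles, clotting factors and complement. They also take up and detoxify drugs, make bile acids from cholesterol, turn ammonia into urea, and store or release glucose. A network of transcription factors that includes the HNF4, FOXA and C/EBP families maintains these programs. Liver cell cancers often keep part of the secretory program and re-express genes of the fetal liver, such as AFP, while enzymes of the mature liver are reduced.

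Levels below are FPKM, the fragments per kilobase of gene scaled to library size that the authors deposited, and errors are SDs over the 3 libraries (n = 3). The libraries held 29969485, 30157731 and 30348435 reads assigned to genes. FPKM values were given for 26184 genes, and a gene was counted as detected at 1 FPKM or more in every library. This left 9171 genes, of which 8352 were protein-coding. The latter are 52.7% of the 15843 protein-coding genes with values, whose median was 1.46 FPKM. List medians below likewise cover all members with values, detected or not. The transcript of TPT1 itself, targeted in the other cells, stood at 445.96, 365.90 and 358.13 FPKM in control libraries 1 to 3.

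The cell type label was checked against 4 hepatocyte markers. APOA1, the main protein of high-density lipoprotein, stood at 1821, 2079 and 2149 FPKM in libraries 1, 2 and 3 (mean 2017 ± 173). SERPINA1, the elastase inhibitor alpha-1-antitrypsin, gave 2005, 2050 and 1851 FPKM (mean 1968 ± 104). ALB, serum albumin, gave 1835, 1347 and 1352 FPKM (mean 1511 ± 280). Library 1 held more albumin transcript than the other 2, which differed little from each other. AFP, the fetal counterpart of albumin, gave 486, 387 and 329 FPKM (mean 401 ± 79.2). All 4 markers lay far above the median of the detected protein-coding genes, which was 8.20 FPKM, and none went against the label.

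ALB and AFP are neighbours on chromosome 4 (GRCh38, 73397114 to 73421412 and 73431138 to 73456174, both on the plus strand). The locus also holds AFM, which encodes the vitamin E carrier afamin (73481683 to 73504001, plus strand), and GC, which encodes the vitamin D carrier (71741693 to 71804041, minus strand). AFM was read at 0, 0 and 0.02 FPKM, and GC had no read in any library. A count of 0 allows up to 3 reads in a library, counting error alone considered. Within 1 gene family in 1 neighbourhood, the transcript levels thus ran from none detected to over 1000 FPKM. The upstream sequences of the 3 neighbouring genes are shown with that of FTL, the gene of highest FPKM in these cells, because they differ in base composition and in the short motifs they hold. Sequences are from RefSeq (GRCh38.p14, plus strand), start 200 bases before the RefSeq start site and stop before the next annotated exon base of the gene. The stretches of ALB and AFP lie inside the gene spans given above, which come from GENCODE and begin further upstream than the RefSeq start sites. Capitals mark GTTAATNAT (a short motif of liver promoters), CCAAT and GGGCGG (a site bound by SP1) on either strand. In AFP the first 2 overlap.
ALB, chr4:73404087-73404238: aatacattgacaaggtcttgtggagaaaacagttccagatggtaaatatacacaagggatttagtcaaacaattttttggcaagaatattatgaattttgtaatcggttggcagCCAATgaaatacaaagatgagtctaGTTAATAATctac
AFP, chr4:73436021-73436162: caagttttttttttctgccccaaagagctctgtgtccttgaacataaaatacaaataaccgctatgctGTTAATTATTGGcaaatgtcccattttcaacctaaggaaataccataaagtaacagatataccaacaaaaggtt
AFM, chr4:73481545-73481682: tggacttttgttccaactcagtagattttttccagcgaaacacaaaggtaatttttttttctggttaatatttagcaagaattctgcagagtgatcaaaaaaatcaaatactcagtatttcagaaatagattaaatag
FTL, chr19:48965109-48965300: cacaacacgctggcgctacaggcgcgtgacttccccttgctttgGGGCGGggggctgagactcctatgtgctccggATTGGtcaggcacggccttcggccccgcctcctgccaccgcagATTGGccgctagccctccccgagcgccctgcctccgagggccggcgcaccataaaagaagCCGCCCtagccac

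The 250 bases upstream of ALB, AFP and AFM were 30%, 31.6% and 28% G or C, with 3, 1 and 1 CpG dinucleotides. The same window of FTL was 67.6% G or C, with 18 CpG. ALB and AFP each held GTTAATNAT once in this window and AFM did not. Among the secreted liver lists, genes not detected had 29 promoters, of which 2 (6.90%) held the motif. Genes at 100 FPKM or more in every library had 23 promoters, of which 2 (8.70%) held the motif. Over 35116 RefSeq promoters, 0.723% held GTTAATNAT in that window on either strand, and 8 of the 101 promoters (7.92%) of genes on the secreted liver lists did. The letters were shortened from a longer form of the motif after the ALB promoter had been read, so these shares are a description only. ALB and AFP, shown above, are themselves the 2 promoters with the motif at 100 FPKM or more, and both are counted among the 8 of 101. At a mean of 100 FPKM or more, the only listed genes with the motif were ALB, AFP, SPP1 and PCBD1. After ALB and AFP, the highest of the 100 listed genes with the motif were SPP1 at 305 FPKM, PCBD1 at 166 FPKM, SGTA, a co-chaperone, at 70.7 FPKM and FGA, which encodes a fibrinogen chain, at 66.5 FPKM. Promoters of the secreted lists had a median of 4 CpG, against 21 for detected protein-coding genes and 11 for all promoters. TATAAA was found in 15.8% of them, in 4.88% of promoters of detected protein-coding genes and in 10.7% of all promoters. The 22 promoters of cholesterol synthesis genes were of another kind, with CCAAT in 77.3% and GGGCGG in 90.9%, against 33.7% and 66.7% of promoters of detected protein-coding genes and 32.0% and 42.6% of all promoters. A match to these letters is no evidence of binding.

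A small number of genes made up much of the FPKM total. The 74 highest genes held 50% of summed FPKM, 487 genes held 75% and 1931 genes held 90%. The 100 leading genes held 54.9% ± 0.747 of summed FPKM and 38.2% ± 0.838 of reads, since short genes weigh more per kilobase. By class, protein-coding genes held 92.7% ± 0.608 of summed FPKM. Of all listed genes, 2324 had 0 FPKM in all 3 libraries, 8048 had a mean above 0 and under 0.1 FPKM, 6144 lay from 0.1 to 1, 5787 from 1 to 10, 3233 from 10 to 100, 558 from 100 to 1000 and 90 at 1000 or more.

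Ferritin, the mitochondrial genome and the ribosome led the list. FTL, the light chain of the iron store ferritin (chromosome 19, 48965301 to 48966878, plus strand), was first, at 17798, 19286 and 21525.5 FPKM (mean 19537 ± 1876). This 1 gene held 3.39% ± 0.255 of summed FPKM. The heavy chain gene FTH1 stood lower, at 2241, 1825 and 2021 FPKM (mean 2029 ± 208). The library order differed for the 2 chains, with FTL highest in library 3 and FTH1 highest in library 1. Among the 30 leading genes 9 were mitochondrial and 17 encoded cytosolic ribosomal proteins. The other 4 were FTL, the apolipoprotein gene APOA2, the glycolytic gene GAPDH and the joint entry RPS10-NUDT3.

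**Figure D1:**
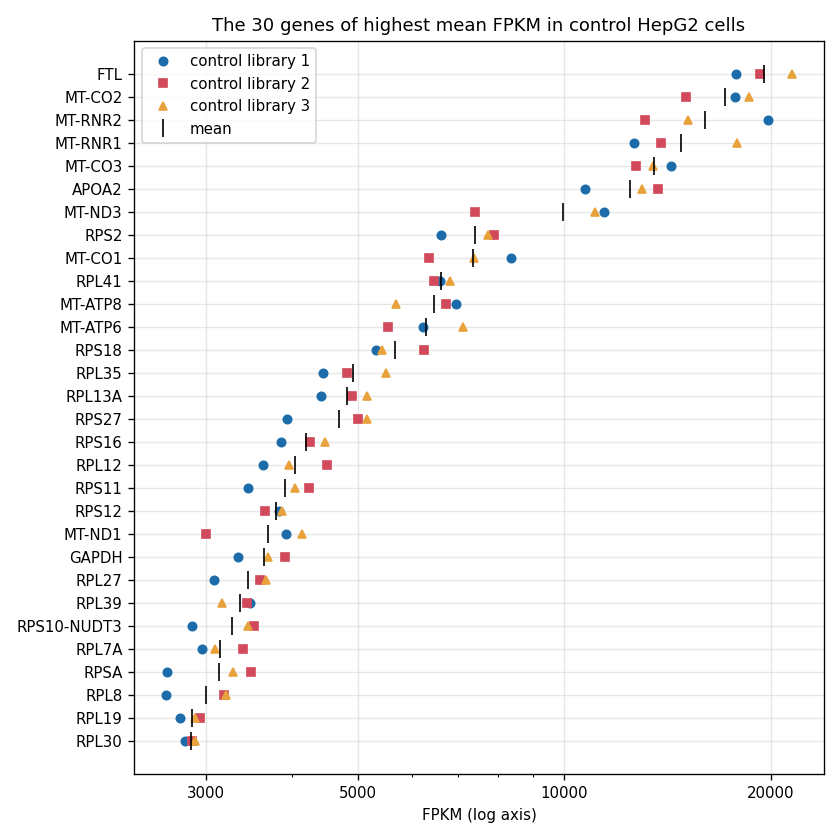
FPKM of the 30 genes of highest mean FPKM in each of the 3 control libraries (log axis), with the mean as a black bar. FTL stood first at a mean of 19537 FPKM and APOA2 sixth at 12455 FPKM. RPL41 and RPL30 spread less between libraries than the mitochondrial transcripts drawn. RPSA (SD 14.4% of the mean) spread more than MT-CO3 (5.93%), so ribosomal and mitochondrial genes overlapped in spread.

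The 37 mitochondrial genes held 18.2% ± 1.95 of summed FPKM, with 19.9% in library 1, 16.1% in library 2 and 18.7% in library 3. MT-CO2, a subunit of cytochrome c oxidase, led them at 17773, 15059 and 18621 FPKM (mean 17151 ± 1861). MT-ND6, a subunit of complex I encoded on the other strand of the circle, was the lowest of the 13 messages, at 183, 115 and 100 FPKM (mean 133 ± 44.2). MT-ND3 at 9966 ± 2229 FPKM and MT-ND5 at 617 ± 151 FPKM also belong to complex I, so its subunits differed widely in level. Library 1 was highest for 9 of the 13 messages and library 2 for none of them. Over all detected genes they were highest for 52.3% and 28.5%. Mitochondrial ribosomal RNA lacks long poly(A) tails, and its 2 genes, MT-RNR1 and MT-RNR2, still held 5.35% ± 0.571 of summed FPKM.

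All 48 cytosolic ribosomal proteins on the list were detected, from RPL7 at 268 ± 53.2 FPKM to RPS2 at 7409 ± 695 FPKM, with a median of 1400 FPKM. RPS2, a small-subunit protein, gave 6611, 7888 and 7727 FPKM, and RPL41, the shortest large-subunit protein, gave 6577, 6446 and 6809 FPKM. RPL41 was thus steadier between libraries than RPS2. Library 3 was highest for 26 of the 48 and library 1 for 9, while over all detected genes these libraries were highest for 19.2% and 52.3%. Ribosomal proteins are held at fixed proportions in the particle, whereas the FPKM of their genes spanned more than a factor of 10. In library 1 RPL37A had 202065 reads and 1446 FPKM, and RPL41 had 143770 reads and 6577 FPKM. This span therefore depends on the gene length by which FPKM divides, and is not one of transcript number alone. Counted by symbol over the whole table, 85 ribosomal protein genes held 24.3% ± 0.905 of summed FPKM. Many of these genes have near-identical pseudogenes, so their exact levels are uncertain.

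Genes of secreted liver proteins followed. The 103 genes on the lists of plasma carriers and protease inhibitors, coagulation, complement and apolipoproteins held 5.52% ± 0.324 of summed FPKM. Of the carriers and inhibitors, 29 of 34 were detected and 17 exceeded 100 FPKM in every library, with a median of 109 FPKM. The highest members other than the 4 markers were AHSG, the calcium-binding fetuin-A, at 1912, 2122 and 1777 FPKM (mean 1937 ± 174), and AMBP, precursor of alpha-1-microglobulin and bikunin, at 1275, 1634 and 1496 FPKM (mean 1468 ± 181). SERPINA3, antichymotrypsin, gave 1110, 1526 and 1286 FPKM (mean 1307 ± 209). Library 2 was highest for 18 of the 29 detected genes and library 3 for 3, while over all detected genes library 2 was highest for 28.5%. TF, the iron carrier transferrin, stood at 727 ± 80.5 FPKM, and the closely related orosomucoid genes ORM1 and ORM2, which share sequence, at 669 ± 62.2 and 605 ± 85.9 FPKM. Carriers of vitamin A, RBP4 at 429 ± 20.3 FPKM and TTR at 183 ± 24.1 FPKM, lay in the middle of the range. The least expressed were HRG, histidine-rich glycoprotein, at 0.02, 0.03 and 0 FPKM, with AFM and GC as given above.

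Neighbouring genes of this kind differed sharply. On chromosome 3, AHSG (186612923 to 186621318, plus strand) lies within 132 kb of FETUB, HRG and KNG1, which encodes kininogen, the precursor of bradykinin. FETUB was read at 0.63, 0.86 and 0.77 FPKM and KNG1 at 0.12, 0.10 and 0.12 FPKM, each under 1 FPKM beside AHSG at 1937 FPKM. On chromosome 14, SERPINA1 (94376747 to 94390693, minus strand) and SERPINA3 (94592058 to 94624646, plus strand) belong to a run of serpin genes with very different levels. SERPINA5, the protein C inhibitor, stood at 118 FPKM, SERPINA6, the cortisol carrier, at 69.9 FPKM and SERPINA11 at 30.2 FPKM. SERPINA9 and SERPINA12, in the same run, were at 0.0233 and 0.0133 FPKM. The table lists SERPINA3 under 2 identifiers. The span above is that of the entry at 1307 FPKM, which begins inside SERPINA5 (end at 94593120). The shorter one (94612377 to 94624055) held 0.963 FPKM, and how reads were split between these entries is not known.

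Of the clotting genes 16 of 23 were detected, with a median of 5.21 FPKM. F2, prothrombin, led at 180, 202 and 174 FPKM (mean 185 ± 14.7). PROC, the anticoagulant protein C, stood at 91.2 ± 6.76 FPKM, and SERPIND1, heparin cofactor II, at 79.6 ± 5.72 FPKM. The fibrinogen genes sit together on chromosome 4, and their 3 chains enter the protein in equal numbers. FGG stood at 131, 108 and 101 FPKM, FGA at 78.0, 67.2 and 54.2 FPKM, and FGB at 26.9, 24.4 and 19.6 FPKM. All 3 chains kept the order FGG, FGA, FGB in every library, and all 3 were highest in library 1 and lowest in library 3. PLG, plasminogen, was read at 0.01, 0.05 and 0.02 FPKM, KLKB1, plasma kallikrein, at 0.01, 0.04 and 0.01 FPKM, and F13B at 0, 0 and 0.01 FPKM, from at most 5 reads in a library.

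Complement was lower than the clotting genes, with 13 of 22 genes detected and a median of 1.86 FPKM. For all protein-coding genes with values the same measures were 52.7% and 1.46 FPKM. C3, the central component, reached 179, 137 and 125 FPKM (mean 147 ± 28.5). C2 followed at 34.9 ± 1.45 FPKM, C4BPB, a chain of the C4b-binding inhibitor, at 22.7 ± 0.236 FPKM, and CFI, a protease that inactivates C3b, at 19.2 ± 2.96 FPKM. C4A and C4B, near-identical copies, were read at 4.0 ± 1.11 and 3.84 ± 0.835 FPKM, and how reads were split between them is not known. Genes of the membrane attack complex were unequal. C5 stood at 1.92 ± 0.467 FPKM and C8A at 1.80 ± 0.340 FPKM, while C6 (0.0267 FPKM) and C9 (0.0133 FPKM) had at most 4 reads in a library. Of the acute phase genes 11 of 13 were detected, and LBP, the lipopolysaccharide carrier, was at 0.0433 ± 0.0321 FPKM.

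Apolipoprotein genes held 3.12% ± 0.244 of summed FPKM, most of it from APOA2. APOA2, the second protein of high-density lipoprotein (chromosome 1, 161222292 to 161223631, minus strand), gave 10722, 13681 and 12963 FPKM (mean 12455 ± 1544). It stood above APOA1, its partner in the particle, in every library, with library 1 the lowest for both. APOE, a ligand of lipoprotein receptors, gave 1341, 1225 and 1393 FPKM (mean 1319 ± 85.8). APOB, the large structural protein of low-density lipoprotein, stood at 18.2, 15.2 and 10.8 FPKM (mean 14.7 ± 3.70), and MTTP, which loads lipid onto it, at 3.39 ± 0.445 FPKM. APOA1 shares 48.6 kb of chromosome 11 with APOC3 at 190 ± 26.1 FPKM, APOA5 at 13.7 ± 2.45 FPKM and APOA4 at 1.75 ± 0.292 FPKM. The order APOA1, APOC3, APOA5, APOA4 held in every library. APOC2, the cofactor of lipoprotein lipase, appeared almost silent at 0.83 FPKM, but the joint entry APOC4-APOC2, which covers 55.4% of its exon bases, held 416, 504 and 492 FPKM. ABCG1, a cholesterol exporter, was at 0.00333 FPKM and APOD had no read.

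Iron and metal genes were detected for 18 of 21. HAMP, the iron hormone hepcidin, stood at 109, 117 and 144 FPKM (SD 18.3), and HMOX1, heme oxygenase, at 44.3 ± 3.37 FPKM. The metallothioneins, small zinc and copper binding proteins, lie together within 76.0 kb of chromosome 16. MT2A gave 324, 221 and 358 FPKM and MT1E 103, 102 and 143 FPKM, both highest in library 3. MT1G, MT1F and MT1X stood at 39.4 ± 12.9, 27.3 ± 7.01 and 25.9 ± 5.19 FPKM, again highest in library 3, and MT1M at 0.33 ± 0.242 FPKM. These genes are similar in sequence, so their separation is uncertain. HFE2, hemojuvelin, was at 0.0233 ± 0.0208 FPKM.

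Of the hepatocyte transcription factors 19 of 26 were detected, at a median of 7.78 FPKM, against 109 FPKM for the plasma carriers and inhibitors. XBP1, a factor of the secretory stress response, led at 234, 256 and 255 FPKM (mean 248 ± 12.7). NR0B2, the bile acid induced repressor SHP, gave 76.4, 97.3 and 96.2 FPKM, CEBPA at 70.7 ± 3.97 FPKM and CEBPB at 57.5 ± 1.49 FPKM. FOXA3 reached 40.2 ± 4.21 FPKM, HNF4A 22.7 ± 2.59 FPKM and FOXA2 18.5 ± 2.25 FPKM. FOXA1 was higher in library 1, at 12.6 FPKM, than in libraries 2 and 3, at 6.65 and 7.52 FPKM. Receptors for foreign compounds were low. NR1I2, the pregnane receptor, stood at 1.37 ± 0.115 FPKM, and NR1I3, the androstane receptor, at 0.08, 0.03 and 0.05 FPKM. PPARA, the receptor of fatty acid oxidation, lay at 0.753 ± 0.110 FPKM, PROX1 at 0.747 ± 0.229 FPKM and ONECUT1 at 0.447 ± 0.159 FPKM, all under the detection level in at least 1 library.

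Among the 19 liver function lists, the share of detected genes was lowest for the cytochrome P450 list. Of its 19 genes 4 were detected, with a median of 0.267 FPKM, and 2 of the 4 are redox partners and not P450 enzymes. POR, the reductase that feeds electrons to P450 enzymes, stood at 85.9, 93.9 and 88.1 FPKM (mean 89.3 ± 4.17), and CYB5A, cytochrome b5, at 30.6 ± 2.53 FPKM. CYP2W1, an enzyme of tumours and fetal tissue, gave 20.7, 15.3 and 18.1 FPKM, and CYP1A1, an enzyme induced by aromatic hydrocarbons, 14.5, 17.6 and 15.5 FPKM. The main drug enzymes of adult liver were near 0. CYP3A4 was read at 0.03, 0 and 0.08 FPKM, CYP2B6 at 0.03, 0 and 0.07 FPKM and CYP1A2 at 0.01, 0.02 and 0.05 FPKM. CYP2E1 and CYP2C8 had no read in any library, with the same upper limit as GC. The reductase was thus high while the best known drug enzymes it serves were near 0.

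Conjugation enzymes were mixed, with 15 of 28 detected and a median of 3.38 FPKM, against 52.7% and 1.46 FPKM for all protein-coding genes. NQO1, a quinone reductase induced by oxidative stress, led at 364, 452 and 416 FPKM (mean 411 ± 44.5), followed by the glutathione transferase GSTO1 at 254 ± 34.3 FPKM. SULT1A1, which adds sulfate to phenols, stood at 71.9 ± 8.46 FPKM, EPHX1, epoxide hydrolase, at 51.9 ± 4.50 FPKM and MGST1 at 35.7 ± 8.35 FPKM. GSTP1 was low, at 0.43, 0.82 and 0.26 FPKM. UGT1A1, which conjugates bilirubin, was at 0.01, 0.02 and 0.01 FPKM. UGT1A genes share their last exons, so reads between them cannot be assigned with certainty. NNMT stood at 0.0967 ± 0.0404 FPKM, GSTM1 at 0.0567 ± 0.0666 FPKM and UGT2B15 at 0.0100 ± 0.0173 FPKM, and NAT2 had no read.

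Bile acid genes were detected for 13 of 26, with a median of 1.40 FPKM, near the 52.7% and 1.46 FPKM of all protein-coding genes. FGFR4, the receptor through which the gut hormone FGF19 restrains bile acid synthesis, stood highest at 108, 94.5 and 117 FPKM (mean 106 ± 11.3). CYP27A1, which starts the alternative pathway, reached 86.7 ± 6.81 FPKM and HSD3B7, a later step shared by both pathways, 57.6 ± 6.34 FPKM. CYP7A1, the first and rate-limiting enzyme of the main pathway, was at 0, 0.03 and 0.01 FPKM, and CYP8B1, which sets the share of cholic acid, at 0.0833 ± 0.0231 FPKM. CYP7B1, the second step of the alternative pathway, was at 0.00667 ± 0.00577 FPKM. Import was almost silent, with the bile acid carrier SLC10A1 at 0, 0 and 0.02 FPKM and the organic anion carrier SLCO1B3 at 0, 0 and 0.01 FPKM. Export genes were mixed, with ABCC2 at 6.93 ± 0.756 FPKM, ABCC3 at 5.40 ± 0.429 FPKM and SLC51B, a subunit of the basolateral exporter, at 20.4 ± 3.47 FPKM. SLC51A, the other subunit of that exporter, stood at 0.70 ± 0.370 FPKM and the exporter ABCC4 at 0.433 ± 0.101 FPKM, both under the detection level.

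Cholesterol synthesis was nearly complete, with 21 of 22 genes detected and a median of 21.3 FPKM. FDPS, which makes farnesyl diphosphate, gave 218, 274 and 268 FPKM (mean 253 ± 30.9). FDFT1, squalene synthase, stood at 129 ± 14.8 FPKM and MVD at 87.9 ± 6.56 FPKM. INSIG1, which holds the sterol sensor in the endoplasmic reticulum, was the one member not detected, at 0.02, 0.02 and 0.03 FPKM.

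Fatty acid and triglyceride synthesis had 20 of 25 genes detected, with a median of 8.63 FPKM. PLIN2, a coat protein of lipid droplets, stood at 195 ± 22.9 FPKM, SCD, which makes oleate, at 113 ± 15 FPKM, ACLY at 42.0 ± 4.40 FPKM and FASN, fatty acid synthase, at 37.3 ± 10.6 FPKM. FASN spread widely, at 48.7, 27.7 and 35.6 FPKM in libraries 1, 2 and 3. THRSP, a lipogenic gene of mature liver, was at 0.0267 ± 0.0252 FPKM. In fatty acid oxidation 18 of 21 genes were detected, led by FABP1, the liver fatty acid binding protein, at a mean of 254 ± 38.0 FPKM, and ACAA1 at 121 ± 12.1 FPKM. PDK4, a fasting-induced kinase, had no read.

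Urea cycle genes were uneven along the pathway. ASS1, argininosuccinate synthase, stood at 61.2, 74.7 and 72.9 FPKM (mean 69.6 ± 7.36), and ASL, the next enzyme, at 44.1 ± 4.19 FPKM. CPS1, which brings ammonia into the cycle, was at 1.65, 1.56 and 1.14 FPKM (mean 1.45 ± 0.272). OTC, the step after CPS1, was at 0, 0 and 0.02 FPKM, and the hepatic arginase ARG1 at 0.71 ± 0.108 FPKM. The 2 middle enzymes were thus present at 44 FPKM or more, and the 3 others at under 2 FPKM. GLUL, glutamine synthetase, which removes ammonia by another route, stood at 46.9 ± 0.925 FPKM. Over the whole list 13 of 15 genes were detected.

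Amino acid breakdown had 22 of 29 genes detected, with a median of 13.2 FPKM. AHCY, which clears S-adenosylhomocysteine, led at 361 ± 40.1 FPKM, and HPD, of tyrosine breakdown, stood at 227, 260 and 238 FPKM (mean 242 ± 16.5). HGD at 49.4 ± 4.22 FPKM and FAH at 17.8 ± 1.29 FPKM, of the same tyrosine route, were detected, while TAT, its aminotransferase, was at 0.74, 0.42 and 0.37 FPKM. BCKDHA, a subunit of the branched-chain dehydrogenase, was listed at 0.0167 FPKM, with 63.8% of its exon bases shared with an entry named CTC-435M10.3 at 22.4 ± 2.36 FPKM. Its low value therefore cannot be separated from how overlapping reads were assigned.

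Of the glycolysis genes 16 of 21 were detected, at a median of 21.6 FPKM, led by GAPDH at 3335, 3906 and 3691 FPKM (mean 3644 ± 288) and ENO1, enolase, at 2632 ± 278 FPKM. Gluconeogenesis and glycogen had 11 of 19 genes detected, at a median of 2.32 FPKM, against 52.7% and 1.46 FPKM for all protein-coding genes. G6PC, which releases free glucose, was at 0.52, 0.45 and 0.30 FPKM, FBP1 at 0.35 ± 0.0755 FPKM and PCK1, the cytosolic form of the first committed step, at 0.42 ± 0.118 FPKM. PPP1R3B, the glycogen-targeting subunit of liver, was at 0.0433 FPKM, and GYS2, liver glycogen synthase, had no read.

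The plot of paired genes mostly sets the liver form of an enzyme or carrier against its broadly expressed form. Of 21 pairs, 18 had values for both genes, and the first gene, often the broad form, was higher in all 3 libraries in 13. Pairs of other kinds are among the 13, such as SOAT2 over SOAT1 and PCK2 over PCK1. CYP3A7 over CYP3A4 is also counted, although CYP3A4 had only 3, 0 and 7 reads. PKM, the pyruvate kinase of growing cells, exceeded the liver form PKLR by factors of 121 to 141, at 658 ± 32.7 against 5.0 ± 0.165 FPKM. The glucose carrier SLC2A1 at 260 ± 22.7 FPKM exceeded the liver carrier SLC2A2 at 1.87 ± 0.404 FPKM by factors of 117 to 157. PCK2, the mitochondrial form, exceeded PCK1 by factors of 257 to 387, and ARG2 exceeded ARG1 by 25.8 to 34.9. SLC7A5 at 94.2 ± 12.3 FPKM exceeded the liver amino acid carrier SLC7A2 at 1.64 ± 0.240 FPKM. GYS1 stood at 14.6 ± 0.859 FPKM beside GYS2 with no read.

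Other pairs were close or ran the other way. MAT2A at 28.7 ± 1.39 FPKM exceeded MAT1A, the form that marks mature liver, at 19.6 ± 1.49 FPKM by factors of 1.32 to 1.66 only. TFRC and TFR2, the broad and hepatic transferrin receptors, changed order between libraries, with 8.96, 7.36 and 6.01 against 6.65, 6.40 and 6.27 FPKM. ALB exceeded AFP by factors of 3.48 to 4.10. CDH2 exceeded CDH1, the epithelial cadherin, by factors of 7.38 to 7.49, the narrowest range among the pairs with ratios. SOAT2, the sterol acyltransferase of intestine and fetal liver, stood at 16.1 ± 1.27 FPKM against SOAT1 at 1.52 ± 0.391 FPKM.

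**Figure D2:**
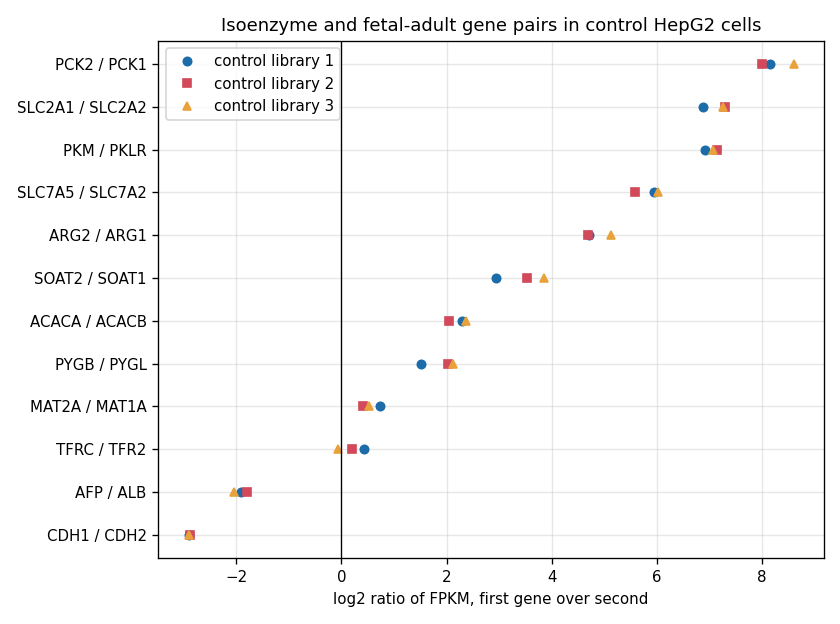
Log2 ratio of FPKM of the first gene over the second in each of the 3 control libraries, for 12 of the pairs in which both genes had a mean above 0.05 FPKM; 0 means equal levels. The mitochondrial PEP carboxykinase, the broad glucose carrier and the broad pyruvate kinase lay above their partners in every library, and CDH1 and AFP lay below their partners.

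Uptake genes were detected for 18 of 22, with a median of 5.98 FPKM. Of the 18, 11 were highest in library 1, as were 52.3% of all detected genes. SLC3A2, the heavy chain of amino acid carriers, gave 113, 118 and 113 FPKM (mean 114 ± 3.19). SLC2A3, a glucose carrier of neurons and many tumours, stood at 55.5 ± 6.82 FPKM and SLC13A5, the citrate carrier of liver, at 30.5 ± 2.34 FPKM. Carriers of organic anions were low, with SLC22A7 at 0.88, 0.73 and 0.69 FPKM. SLC38A4, an amino acid carrier, was at 0.01, 0 and 0.02 FPKM.

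Of the liver hormones and growth factor binding proteins 15 of 20 were detected, with a median of 6.41 FPKM. GDF15, a stress-induced hormone, gave 307, 304 and 311 FPKM (mean 307 ± 3.37). IGFBP1, which binds insulin-like growth factors, gave 353, 304 and 232 FPKM (mean 296 ± 61.2), so the libraries differed for it and hardly for GDF15. SEPP1, the selenium carrier selenoprotein P, stood at 134 ± 9.45 FPKM. The fasting hormone FGF21 was at 0.10, 0 and 0.05 FPKM, the hormone receptor PRLR at 0.0333 ± 0.00577 FPKM, and LECT2 had no read.

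Genes of the fetal liver and of liver tumours were detected for 20 of 29. Beside AFP, the growth factor IGF2 stood at 289, 178 and 191 FPKM (mean 219 ± 61.0), the Wnt inhibitor NOTUM at 141 ± 17.1 FPKM, and GPC3, the heparan sulfate proteoglycan glypican-3, at 152, 109 and 99.8 FPKM (mean 120 ± 28.0). PEG10 stood at 39.0 ± 12.7 FPKM and AKR1B10 at 38.7 ± 4.74 FPKM. Of the 20 detected genes 17 were highest in library 1, against 52.3% of all detected genes. H19, the imprinted RNA beside IGF2 on chromosome 11, was under the detection level at 0.77, 0.94 and 0.62 FPKM. LIN28B was at 1.09 ± 0.291 FPKM, SALL4 at 0.0733 ± 0.0153 FPKM, and GOLM1, a Golgi membrane protein, at 0.09 ± 0.0265 FPKM. CYP3A7, the fetal partner of CYP3A4, was at 0.08, 0.03 and 0.19 FPKM. All 24 genes of DNA replication and mitosis were detected, at a median of 43.5 FPKM, with CDK4 at 201 ± 27.8 FPKM and PLK1 at 140 ± 8.58 FPKM. MKI67 stood lowest of them at 1.57 ± 0.405 FPKM.

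Over all liver function lists, 294 of 413 genes were detected (71.2%), against 52.7% of all protein-coding genes with values. For the markers of other cell types 23 of 88 were detected (26.1%), with a median of 0.0467 FPKM. A further 65 of 153 entries, against 29 of 442 for the liver lists, had no value and were not analysed here. The authors named their table one of expressed genes, so entries it lacks may be unexpressed. All these shares may therefore be too high, and unequally so. None of 6 endothelial markers was detected and 4 of them were under 0.1 FPKM, with PECAM1 at 0.0133 ± 0.00577 FPKM and ERG without a read. Of 9 lymphocyte markers 1 was detected (2 without library 3) and 4 were under 0.1 FPKM, among them CD3E, a chain of the T cell receptor complex, at 0.00667 FPKM. CD3D, another chain of that complex, was the 1 detected in every library, at 2.41 ± 0.193 FPKM. All 4 erythroid markers were under 0.1 FPKM. CSF1R, a receptor of macrophages, was at 0.00333 FPKM, although 3 of 5 macrophage markers were detected. Stellate cell and fibroblast markers were detected for 2 of 8, and 6 were under 0.1 FPKM. The collagen genes COL1A1 and COL3A1 were at 0.0533 ± 0.0404 and 0.0333 ± 0.0153 FPKM, whereas ACTA2, of the same list, was detected and is given below.

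Single genes of other lineages were nevertheless high. KRT19, a keratin of bile duct cells, stood at 559, 612 and 572 FPKM (mean 581 ± 27.9), beside the hepatocyte keratins KRT8 at 1569 ± 146 FPKM and KRT18 at 928 ± 33.2 FPKM. SPP1, osteopontin, was at 310, 305 and 301 FPKM, and SOX9, a duct transcription factor, at 13 ± 3.61 FPKM. The duct genes KRT7 and MUC1 were at 0.277 ± 0.0503 and 0.0233 ± 0.0153 FPKM, and CFTR had no read, so the duct list was split. LYZ, lysozyme of macrophages, reached 591, 502 and 476 FPKM (mean 523 ± 60.4), with CSF1R near 0 as given. VIL1 at 33.4 ± 2.33 FPKM and ANPEP at 29 ± 5.59 FPKM, of the brush border of gut, were detected, whereas CDX2, the gut transcription factor, was at 0.04 ± 0.0100 FPKM. ACTA2, smooth muscle actin and a marker of the stellate list, stood at 24.7 ± 0.975 FPKM. ACTA1 stood at 13.1 ± 0.776 FPKM, with no read for MYOD1, and reads of actin genes may be shared among copies. SFN, an adaptor protein of squamous cells, stood at 69.5 ± 3.83 FPKM and KRT10 at 15.8 ± 0.690 FPKM, beside KRT5 with no read. They were the 2 detected among 6 squamous markers. TUBB3, a neuronal tubulin, was listed at 108 ± 5.85 FPKM under an identifier that shares 57.1% of its exon bases with a second TUBB3 entry at 0.943 FPKM.

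GH1, the pituitary growth hormone gene (chromosome 17, 63917200 to 63918838, minus strand), was at 59.2, 44.4 and 47.7 FPKM (mean 50.4 ± 7.77). All 3 libraries held it above the median of detected genes. Its near-identical placental neighbours GH2 and CSH1 were at 0.02 FPKM and at no read, CD79B next to it at 0.08 ± 0.0854 FPKM and SCN4A at 0.00333 FPKM. SMARCD2 and PSMC5, on the other side of the cluster, were active at 46.5 and 77.5 FPKM. The cause of the GH1 signal was not tested. Pluripotency genes were low, with POU5F1 at 0.257 ± 0.0651 FPKM, SOX2 at 0.0233 ± 0.0115 FPKM and NANOG at 0.0100 ± 0.0100 FPKM, and DNMT3B alone was detected in every library, at 2.01 ± 0.361 FPKM. Without library 3, 2 of the 11 pluripotency genes were detected. None of 6 cancer-testis genes with values was detected.

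**Figure D3:**
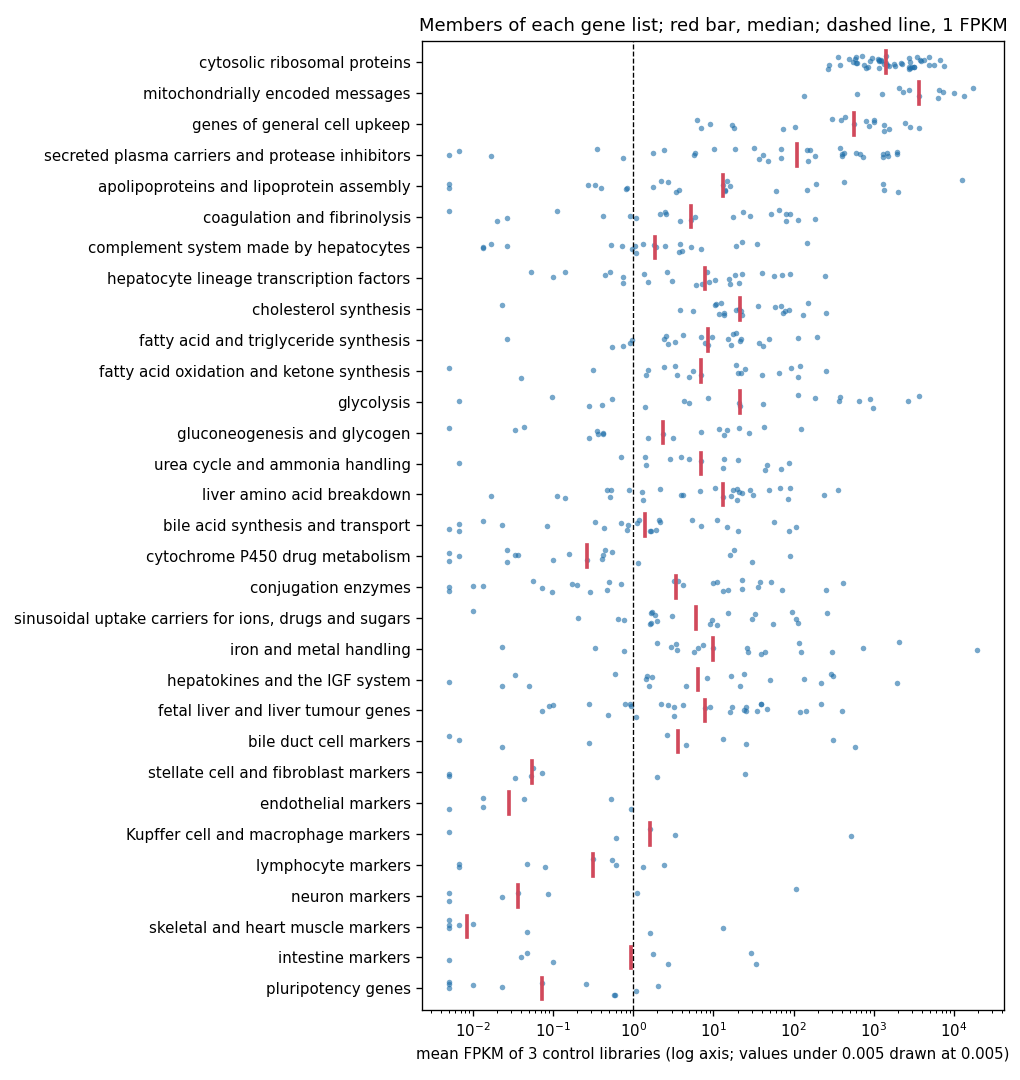
Mean FPKM over the 3 control libraries (log axis) of each member of 31 gene lists, with the list median as a red bar and the detection level of 1 FPKM as a dashed line. Ribosomal, mitochondrial and plasma protein genes lay to the right, P450 genes and the markers of most other cell types had medians under 1 FPKM, and single genes such as KRT19 and LYZ stood far from the rest of their lists.

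How reads were given to overlapping entries touches several of these genes. The table holds 72 entries that join the names of 2 listed neighbouring genes, and 29 of them stood above both of the single genes. RPS10-NUDT3 held 2861, 3521 and 3455 FPKM, against 37.6 ± 3.11 FPKM for RPS10 and 6.82 ± 0.562 FPKM for NUDT3. SENP3-EIF4A1 held 459 ± 34.9 FPKM against 34.4 FPKM for SENP3 and 55.6 FPKM for EIF4A1. A low value of a gene with such a partner is therefore not a low transcript level by itself. Of 121 list members under 0.1 FPKM, only BCKDHA shared at least 50% of its exon bases with an entry of 1 FPKM or more. That cut would miss RPS10 and NUDT3, which share 39.4% and 43.3% of their exon bases with the joint entry. The overlap was taken on the same strand in GENCODE release 29, and the authors' annotation is not given. The low values of the other members are thus not cleared by it.

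Outside protein-coding genes few were detected. Of 2688 lincRNA genes 188 (6.99%) and of 2691 antisense genes 257 (9.55%) were detected, against 52.7% of protein-coding genes. SNHG19 at 148 ± 22.1 FPKM and SNHG8 at 141 ± 18.9 FPKM, hosts of small nucleolar RNAs, led the lincRNA class. MALAT1, often among the most abundant nuclear RNAs, was at 4.32, 5.97 and 4.68 FPKM. ZFAS1, an antisense host of small nucleolar RNAs, stood at 158 ± 8.0 FPKM, and the antisense entry RP4-614O4.11 at 302 ± 37.0 FPKM. Whether the counting used strand is not given, so reads of these antisense entries cannot be told apart from those of the gene they overlap. LRRC75A-AS1 led the processed transcripts at 281 ± 31.8 FPKM and SNHG3 the sense-intronic class at 17.4 ± 0.574 FPKM. The pseudogenes RPS2P5 at 386 ± 44.4 FPKM and MTATP6P1 at 1309 ± 134 FPKM are near-copies of RPS2 and of mitochondrial sequence, and their reads may belong to the parent genes. SNORD104 led the 40 detected small nucleolar RNAs at 34.7 ± 1.64 FPKM, in libraries not made for short RNA.

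By chromosome, the share of protein-coding genes that were detected ran from 64.6% on chromosome 20 to 39.6% on chromosome 13. The median of detected genes was highest on chromosome 19, at 13.1 FPKM, followed by chromosome 20 at 12.8 FPKM and chromosome 16 at 11.4 FPKM, and lowest on chromosome 18 at 4.14 FPKM, against 8.17 FPKM over all. Chromosomes 19, 20, 16, 17 and 22 stood above 10 FPKM in every library. Chromosomes 18 and 13 were the 2 lowest in every library, and no copy number was measured here. The leading gene was a ribosomal protein on most chromosomes, but a liver gene on 4 of them. These were APOA2 on chromosome 1, RBP4 on chromosome 10 at 451, 411 and 427 FPKM, SERPINA1 on chromosome 14 and TTR on chromosome 18 at 156, 203 and 189 FPKM. FTL supplied 26.5% of the FPKM of chromosome 19. Other leaders were TMSB10 on chromosome 2 at 2783 ± 114 FPKM, ACTB on chromosome 7 at 1323 ± 168 FPKM, EEF1G on chromosome 11 at 2201 ± 140 FPKM and SOD1 on chromosome 21 at 329 ± 7.79 FPKM.

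**Figure D4:**
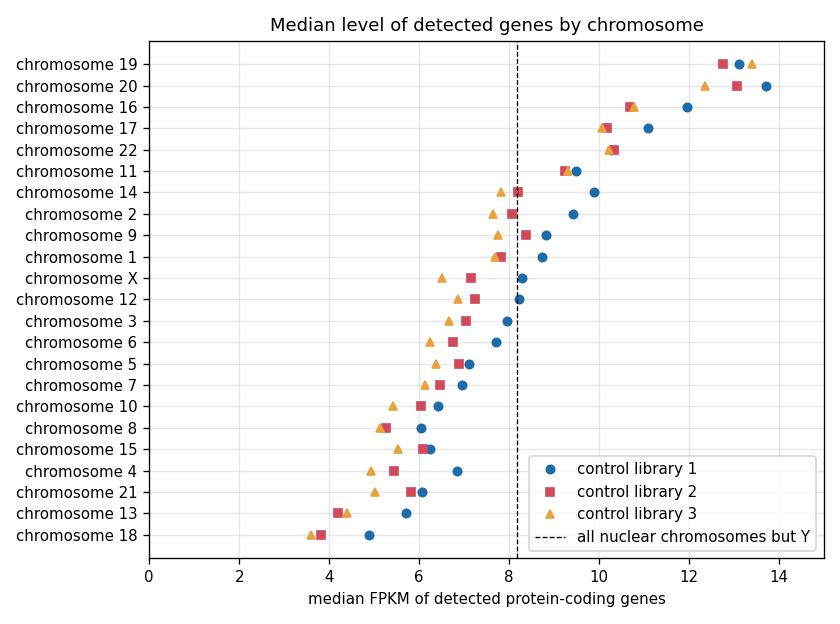
Median FPKM of detected protein-coding genes on each of chromosomes 1 to 22 and X, in each of the 3 control libraries, with the median over these chromosomes as a dashed line. Chromosomes 19, 20, 16, 17 and 22 lay above the line in every library, and library 1 was the highest for most chromosomes.

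The 3 libraries were alike but not equally so. Across detected genes, which are not independent replicates, log2 FPKM of libraries 2 and 3 had a Pearson correlation of 0.995, against 0.990 for library 1 with each of them. The median coefficient of variation (CV, the SD as a percent of the mean) of a detected gene was 11.4%, where counting error alone would give 3.66%. Between libraries 2 and 3 only, the median CV was 6.24%. Library 1 was the highest of the 3 for 52.3% of detected genes and library 3 the lowest for 43.0%. TMM normalization factors of libraries 1, 2 and 3 were 1.07, 0.990 and 0.946. All library orders given here are of deposited FPKM, to which these factors were not applied. The difference went with gene length, as the median log2 difference of library 1 from the mean of the other 2 rose from -0.08 in the shortest of 5 equal bins of genes by exon length to 0.25 in the longest. It ran with level too, from 0.23 at 1 to 10 FPKM to -0.14 at 1000 FPKM or more. Median FPKM fell from 19.7 to 3.95 over the same length bins, so length and level were not separated. The part that RNA quality or handling had in this was not tested.

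Among 3859 genes of at least 10 FPKM and 100 reads in every library, the 10 of highest CV were all highest in library 1. PTGES3, a co-chaperone of the HSP90 system, gave 66.8, 28.8 and 30.4 FPKM (CV 51.2%), and CALM2, one of the calmodulin genes, 172, 93.0 and 86.1 FPKM (CV 40.8%). FN1, fibronectin, gave 210, 124 and 105 FPKM (CV 38.2%), and the amino acid carrier SLC38A2 17.0, 9.12 and 7.41 FPKM (CV 45.7%). Others were PFDN4, AREG, RFC4 and 3 noncoding entries, at CVs of 37.6% to 49.0%. The steadiest gene was GTF3C2, a subunit of an RNA polymerase III factor, at 15.6, 15.7 and 15.6 FPKM (CV 0.289%). SLC1A5, a glutamine carrier, followed at 106, 106 and 107 FPKM (CV 0.307%), then JAGN1, PMPCA and UBE2T at CVs of 0.340% to 0.504%. Such CVs lie below the counting error of those genes, so with 3 libraries they do not single out a gene as constant.

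**Figure D5:**
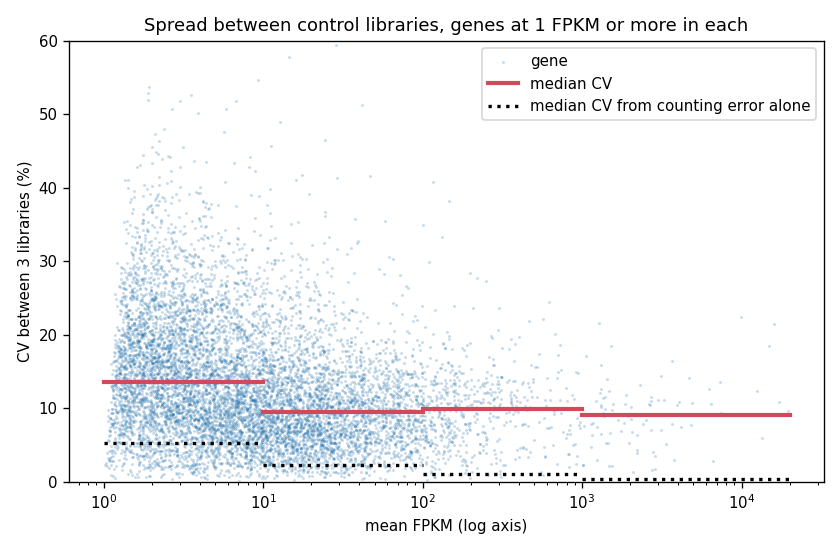
CV between the 3 control libraries against mean FPKM (log axis) for 9156 detected genes, with the median CV of each range of level in red and the median expected from counting error alone as a dotted line; 9 genes above a CV of 60% and 6 further detected genes are not drawn. The median CV fell from 13.5% at 1 to 10 FPKM to 9.15% at 1000 FPKM or more and lay above counting error in every range.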

How the data were processed

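RNA of 3 control and 3 knockdown HepG2 samples was sequenced, and the 3 control samples are described here. The table deposited by the authors holds a count of reads and an FPKM value for each gene and library. They named it one of expressed genes, and how these genes were chosen, and from which libraries, is not given. GRCh38, bcl2fastq, TopHat2 and edgeR are named in the submitters' processing notes, with no versions or roles. How reads were assigned, with which annotation and whether by strand, is not given in the sources used here. Of 26389 listed genes 205 had counts but no FPKM, with at most 3 reads in a control library. A gene was detected at 1 FPKM or more in every control library. No test was made, since 1 group is described, and errors are SDs over 3 libraries. FPKM divides by length and library size, so it weights short genes, and a few high genes lower the rest.

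Positions and exon overlap came from GENCODE release 29, which held 98.0% of the genes, and promoters from RefSeq (12416 listed genes matched by symbol). Counts were normalized by TMM and median-of-ratios factors (edgeR 4.0.16, R 4.3.3) as alternatives, and the CV and dispersion estimates were tested on simulated data. Other tools were Python 3.11.15, pandas 2.3.3 and matplotlib 3.10.9. Of 802 entries in the gene lists 693 were matched. Where a symbol had several rows, the one of higher mean was used. Named genes were the 4 markers, the 30 of highest mean FPKM, up to 6 leading members and those under 0.1 FPKM of each list, the 10 of highest and lowest CV, and the leaders of gene classes and chromosomes, and gene pairs. Not all of these are printed, and others, such as MALAT1 and the serpin and GH1 neighbours, were chosen after their values were seen. The libraries were taken by label, but the choice to describe them, the members and the lists were made with earlier results of these data known. Some genes of these lists and pairs are not reported here.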

Additional observations from a re-analysis of the deposited data

How the results depend on the processing

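No paired analysis was possible because the results come from no test and from 1 group of libraries. Requiring 5 FPKM in place of 1 FPKM in every library lowered the detected genes from 9171 to 5182 and the detected markers of other cell types from 23 to 12, and requiring 10 reads raised the latter to 35. Counted as reads, the share of protein-coding genes was 94.6%, of the 100 leading genes 38.2% and of mitochondrial genes 9.96%. Without mitochondrial genes the first 2 shares were 97.8% and 47.5%. The median CV was 15.7% for genes at a mean of 0.1 FPKM or more, and 6.24% to 11.4% when each library was left out in turn, the lowest without library 1. The other counts and shares over all genes stayed within 1.5 times or 1 SD under the alternatives run. Counts of single lists moved more, and all but 3 of 126 leave-one-out counts and 173 of 210 others stayed within 1.5 times. At 5 FPKM, detected genes fell from 13 to 6 for complement, 13 to 7 for bile acids, 13 to 8 for urea, 18 to 11 for uptake, 11 to 7 for gluconeogenesis and 18 to 11 for fatty acid oxidation. At 10 reads they rose from 4 to 10 for P450 and from 13 to 21 for bile acids. Leaving out library 1 moved the neuron count, and leaving out library 3 the lymphocyte and pluripotency counts, each from 1 to 2. In read counts the first gene was higher in all 3 libraries in 14 of the 18 pairs, against 13 in FPKM. Depth limits the genes near 0, whose values rest on a few reads.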
